A study of Mus musculus with 8 samples.

Results

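The 10 genes described here were the 5 NF-kB subunit genes (Nfkb1, Nfkb2, Rela, Relb and Rel), 3 genes of inhibitors of the IkB family (Nfkbia, Nfkbie and Nfkbiz), Tnfaip3 and Tnf. They were taken by gene symbol, without regard to their values, and all 10 were found among the 16486 genes of the expression table. The values came from bulk RNA-Seq of blood monocytes (MCs) sorted as CD11b+Ly6G- cells with high or low surface Ly6C. Control (CT) mice were of the C57/BL6 strain without treatment. T1DM was modelled in the same strain with intraperitoneal streptozotocin (STZ), which kills pancreatic beta cells, at 50 mg/kg daily on 5 days at the age of 8 weeks. T2DM mice were db/db mice, which carry a homozygous mutation of the leptin receptor and become obese and diabetic. All were males on a normal chow diet and were killed at 20 to 22 weeks of age. There were 2 libraries each of CT Ly6Chigh and CT Ly6Clow MCs and 1 library each of T1DM Ly6Chigh, T1DM Ly6Clow, T2DM Ly6Chigh and T2DM Ly6Clow MCs, 8 in all. Each group was a pool of 5 mice whose RNA was sequenced in duplicate. Ly6Chigh and Ly6Clow MCs of a group came from the same pool, so each mouse group is 1 pool. Nothing says that libraries came from separate animals, and p-values measure only the spread between these libraries, which between CT replicates may be technical. The instrument also differed, with NextSeq for CT and HiSeq for diabetic libraries, and its effect and that of diabetes cannot be told apart.

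NF-kB is a family of dimeric transcription factors built from the products of Rela, Relb, Rel, Nfkb1 and Nfkb2, and in resting cells IkB proteins hold the dimers in the cytoplasm. Signals such as tumor necrosis factor (TNF) or bacterial products activate the IkB kinases, IkB is degraded, and the dimers move to the nucleus, where they switch on inflammatory genes together with their own inhibitors. In MCs this pathway is best known for driving TNF and other cytokines, and much of it acts on proteins that are already made, which mRNA levels do not report.

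The sort was checked against marker genes. Ly6c2, one of the genes for the Ly6C antigen, had log2 values of 8.56 to 8.72 in the 4 Ly6Chigh libraries and 2.69 to 4.07 in the 4 Ly6Clow libraries. Of 8 classical MC markers, 7 were called higher in Ly6Chigh MCs in the pooled test of the subsets described below, and of 9 nonclassical MC markers 5 were called lower. In CT MCs alone, 3 of these 9 were higher in Ly6Chigh MCs, among them Cx3cr1 (8.59 and 8.61 against 7.76 and 7.78). All 8 markers of MCs in general were also higher in Ly6Chigh MCs in the pooled test (3 called, median 0.93), and the reason was not tested. The Ly6Clow libraries also held high levels of lymphocyte genes, and all 16 B cell markers and 9 of 10 NK cell markers were called lower in Ly6Chigh MCs. Among other cells, 1 of 12 T cell and 2 of 8 dendritic cell markers were called lower, 2 of 9 neutrophil markers higher and none of 7 platelet markers in either direction. Summed on the linear scale, the B cell markers reached 383 to 781 in Ly6Chigh and 6255 to 7568 in Ly6Clow libraries. The part of these cells in the differences between subsets given below was not tested, and in bulk RNA fewer cells of a type and less RNA per cell cannot be told apart.

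All 10 genes were detected in every library. Their values are on the deposited log2 scale and are compared between libraries for each gene, not between genes, because it is not known whether the scale takes gene length into account. The spread between the highest and the lowest of the 8 libraries was 0.42 for Nfkb1, 0.63 for Relb, 0.63 for Rela, 0.84 for Nfkb2, 0.86 for Rel, 1.08 for Tnf and 1.12 for Nfkbia on the log2 scale. Nfkbie (1.34), Nfkbiz (1.34) and Tnfaip3 (1.37) varied over a wider span. The median spread was 1.02 over the 10899 genes whose mean log2 value was 2 or more. The subunit genes thus all lay below this median, and the inhibitor genes, Tnfaip3 and Tnf lay above it.

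**Figure D1:**
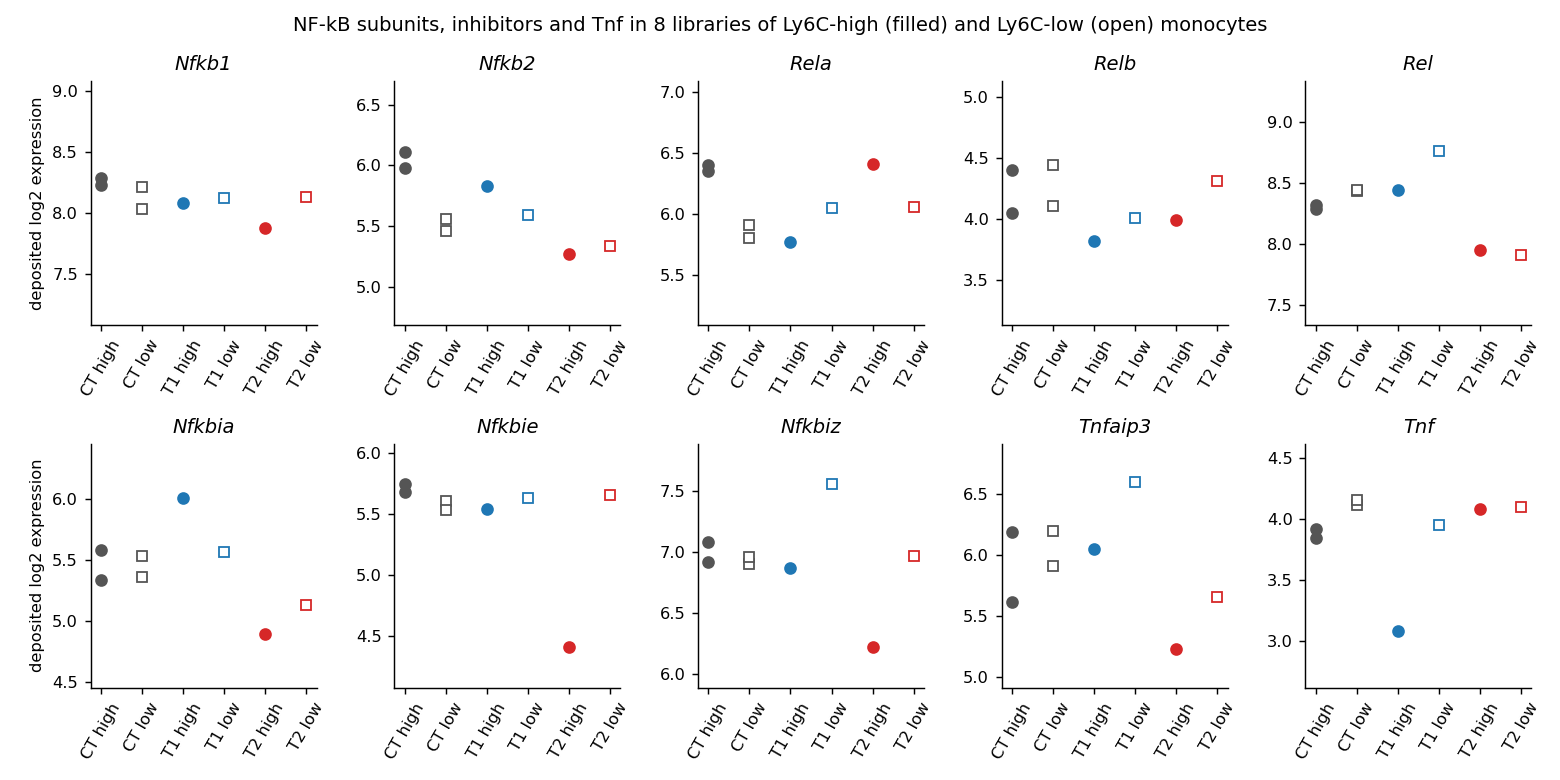
Deposited log2 expression of the 10 genes (y axis, 2 log2 units in each panel, with a different start) in each of the 8 libraries (x axis), with Ly6Chigh libraries as filled circles and Ly6Clow libraries as open squares, in grey for CT, blue for T1DM and red for T2DM mice. The Ly6Chigh and Ly6Clow libraries overlap in every panel, and both T2DM libraries lie below the other 6 for Nfkb2, Rel and Nfkbia.

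Genes with lower values in T2DM than in T1DM MCs of both subsets return below. The promoters of the 4 of them that also held a kappaB match are given. Each is the 250 bases before a RefSeq transcript start in the mouse assembly GRCm38.p6 (mm10), and the capitals mark matches to the kappaB consensus, the DNA element that NF-kB dimers bind, searched on both strands with overlapping matches joined. For Nfkb2 and Tnfaip3, which have several annotated starts, the window with most matches is shown. The windows are chr19:46304487-46304736 on the plus strand for Nfkb2, chr12:55492648-55492897 on the minus strand for Nfkbia, chr11:23770970-23771219 on the minus strand for Rel and chr10:19015411-19015660 on the minus strand for Tnfaip3.
Nfkb2: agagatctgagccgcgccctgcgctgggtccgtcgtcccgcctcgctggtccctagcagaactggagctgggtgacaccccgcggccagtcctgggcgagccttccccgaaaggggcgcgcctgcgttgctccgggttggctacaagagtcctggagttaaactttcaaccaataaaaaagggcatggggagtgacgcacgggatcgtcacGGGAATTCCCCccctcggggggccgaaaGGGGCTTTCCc
Nfkbia: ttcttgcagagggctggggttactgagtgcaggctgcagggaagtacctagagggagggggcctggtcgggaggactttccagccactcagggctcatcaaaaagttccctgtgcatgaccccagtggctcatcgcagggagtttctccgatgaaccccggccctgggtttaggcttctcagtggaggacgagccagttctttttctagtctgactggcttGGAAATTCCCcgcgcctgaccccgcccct
Rel: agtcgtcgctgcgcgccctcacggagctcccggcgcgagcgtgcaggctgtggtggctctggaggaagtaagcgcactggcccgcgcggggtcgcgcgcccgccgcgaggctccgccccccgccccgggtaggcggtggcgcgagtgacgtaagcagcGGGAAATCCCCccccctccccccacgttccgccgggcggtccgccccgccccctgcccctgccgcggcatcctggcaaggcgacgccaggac
Tnfaip3: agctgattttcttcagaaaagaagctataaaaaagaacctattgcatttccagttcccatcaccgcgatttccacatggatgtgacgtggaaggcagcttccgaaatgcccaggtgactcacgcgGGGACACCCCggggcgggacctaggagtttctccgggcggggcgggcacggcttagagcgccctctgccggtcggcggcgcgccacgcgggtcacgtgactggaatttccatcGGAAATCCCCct
Of the 10 genes, 7 had a promoter entry, and 5 of these 7 (Nfkb2, Nfkbia, Nfkbie, Rel and Tnfaip3) held at least 1 kappaB match in at least 1 window. The windows of Rela and Tnf held none. Nfkb1, Relb and Nfkbiz had no entry. Counted by window, 7 of the 10 windows of these genes held a kappaB match, against 3.9% of all 32851 promoter windows of the same length. The share by gene over all genes was not counted. A match describes the letters in the window and does not show binding.

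The comparison of Ly6Chigh with Ly6Clow MCs asks which genes distinguish the subsets. Gene by gene, limma was run on CT MCs (2 against 2 libraries) and on all 8 libraries with mouse group as covariate (4 against 4, called the pooled test). Genes with an adjusted p under 0.01 and a change past 2-fold are said to be called. None of the 10 genes was called in CT MCs, where 3.52% of all genes were, and none in the pooled test, where 12.1% were. At an unadjusted p under 0.05, limma gave 3 of the 10 genes in CT MCs (37.7% of all genes) and 1 in the pooled test (43.2% of all genes). The ranges of the 4 Ly6Chigh and the 4 Ly6Clow libraries overlapped for all 10 genes, while they did not overlap for 32.8% of all genes. The 95% interval of the pooled difference lay wholly within 2-fold either way for all 10 genes, against 44.2% of all genes, and in CT MCs it did so for all 10, against 33.3%. These shares include genes with low values. The lowest mean log2 value of the 10 genes was 3.91 (Tnf), while 12527 of the 16486 genes reached a mean of 1. The part of expression level in these counts, and in the like counts below, was not tested.

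Among the subunit genes, Rela and Nfkb2 had the largest differences between the subsets of CT mice, and neither was called. Rela (chromosome 19, 5637442 to 5648134, GRCm38.p6), which encodes the main activating subunit of the canonical pathway, had log2 values of 6.41 and 6.35 in CT Ly6Chigh and 5.81 and 5.91 in CT Ly6Clow MCs. In T1DM mice the values were 5.77 in Ly6Chigh and 6.05 in Ly6Clow MCs, and in T2DM mice 6.41 and 6.06. Ly6Chigh MCs thus had the higher Rela value in CT and T2DM mice and the lower one in T1DM mice. The difference in CT MCs was 0.52 (SE 0.08, 1.43-fold), with an adjusted p of 0.0324 that missed the limit of 0.01, and in the pooled test it was 0.28 (SE 0.15, adjusted p 0.18).

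Nfkb2 (chromosome 19, 46300994 to 46312400) encodes the precursor that is processed in the noncanonical pathway. Its log2 values were 5.98 and 6.11 in CT Ly6Chigh, 5.47 and 5.56 in CT Ly6Clow, 5.83 in T1DM Ly6Chigh, 5.59 in T1DM Ly6Clow, 5.27 in T2DM Ly6Chigh and 5.34 in T2DM Ly6Clow MCs. The Ly6Chigh value was the higher in CT and T1DM mice, and the T2DM libraries differed by little. The difference in CT MCs was 0.53 (SE 0.10, 1.45-fold, adjusted p 0.0431), and the pooled difference was 0.31 (SE 0.13, adjusted p 0.112). An adjusted p under 0.05 was reached in CT MCs by 20.5% of all genes, and after quantile normalization it was 0.0954 for Nfkb2 (log2FC 0.38) and 0.0775 for Rela (log2FC 0.37). Without any 1 of the CT libraries, it was 0.120 to 0.175 for Nfkb2 and 0.109 to 0.134 for Rela.

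The other 3 subunit genes were not called between the subsets either. Nfkb1 (chromosome 3, 135584655 to 135691969), the partner of Rela in the canonical dimer, varied least of the 10 genes. It had log2 values of 8.29 and 8.23 in CT Ly6Chigh, 8.22 and 8.03 in CT Ly6Clow, 8.08 in T1DM Ly6Chigh, 8.12 in T1DM Ly6Clow, 7.87 in T2DM Ly6Chigh and 8.13 in T2DM Ly6Clow MCs. The pooled difference of Nfkb1 was -0.00 (SE 0.10, 95% interval -0.22 to 0.21). Relb (chromosome 7, 19606217 to 19629438), the noncanonical activating subunit, ranged from 3.82 to 4.40 in Ly6Chigh and from 4.00 to 4.44 in Ly6Clow MCs, and its pooled difference was -0.15 (SE 0.17). Its 2 CT Ly6Chigh libraries differed by 0.35 and its 2 CT Ly6Clow libraries by 0.34, which is more than that difference. Rel (chromosome 11, 23736847 to 23770969), which encodes the c-Rel subunit of lymphoid and myeloid cells, ranged from 7.96 to 8.44 in Ly6Chigh and from 7.91 to 8.77 in Ly6Clow MCs, with a difference of -0.13 (SE 0.04, adjusted p 0.106) in CT MCs and a pooled difference of -0.14 (SE 0.08, adjusted p 0.24). These values depended on the scaling. After quantile normalization Rel was -0.41 in CT MCs (adjusted p 0.0101) and -0.39 in the pooled test (adjusted p 0.00684), short of 2-fold, and the pooled difference of Nfkb1 was -0.27 (adjusted p 0.0572).

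The inhibitor genes were not called between subsets either, and 3 of these 4 (Nfkbie, Nfkbiz and Tnfaip3) had negative pooled differences. Nfkbia (chromosome 12, 55489409 to 55492647) encodes IkB alpha, the inhibitor that NF-kB itself induces to end a response. Its CT values were 5.34 and 5.58 in Ly6Chigh and 5.36 and 5.54 in Ly6Clow MCs, and the pooled difference was 0.06 (SE 0.14, 95% interval -0.27 to 0.38). Nfkbie (chromosome 17, 45555700 to 45563169), the IkB epsilon gene, had 5.68 and 5.74 in CT Ly6Chigh and 5.61 and 5.53 in CT Ly6Clow MCs. The pooled difference of Nfkbie was -0.26 (SE 0.22), and its T2DM Ly6Chigh library stood apart at 4.41, against 5.65 in T2DM Ly6Clow MCs.

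Nfkbiz (chromosome 16, 55811375 to 55838954) encodes the nuclear IkB zeta, which assists induction of secondary response genes. Its values in CT MCs were 6.92 and 7.09 in Ly6Chigh and 6.90 and 6.96 in Ly6Clow MCs, and the pooled difference was -0.32 (SE 0.16, adjusted p 0.159). Tnfaip3 (chromosome 10, 19000910 to 19015410) encodes a ubiquitin-editing enzyme that shuts off signaling upstream of the IkB kinases. Its 2 CT Ly6Chigh libraries held 6.19 and 5.62 and its CT Ly6Clow libraries 5.91 and 6.20, and this replicate difference of 0.57 in Ly6Chigh MCs exceeded the pooled subset difference of -0.32 (SE 0.16, adjusted p 0.158). For Nfkbiz and Tnfaip3 alike, the Ly6Chigh value was lower in both diabetic models, by 0.69 and 0.55 in T1DM and by 0.74 and 0.42 in T2DM mice, each from 1 library of a subset. After quantile normalization the pooled differences were -0.53 for Nfkbiz (adjusted p 0.0264) and -0.46 for Tnfaip3 (adjusted p 0.046).

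Tnf (chromosome 17, 35199367 to 35202007), which encodes the cytokine TNF, had log2 values of 3.92 and 3.84 in CT Ly6Chigh and 4.11 and 4.16 in CT Ly6Clow MCs. It was 3.08 in T1DM Ly6Chigh, 3.95 in T1DM Ly6Clow, 4.09 in T2DM Ly6Chigh and 4.10 in T2DM Ly6Clow MCs. The Ly6Clow value was the higher in CT mice and in T1DM mice, and the T2DM libraries differed by 0.01. The difference of Ly6Chigh minus Ly6Clow was -0.25 (SE 0.14, adjusted p 0.266) in CT MCs and -0.35 (SE 0.19, 95% interval -0.77 to 0.08, adjusted p 0.191) in the pooled test, neither of which passed. Tnf mRNA was thus not shown to differ between the subsets in either direction, and the interval leaves out a pooled level in Ly6Chigh MCs that is 2-fold higher.

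**Figure D2:**
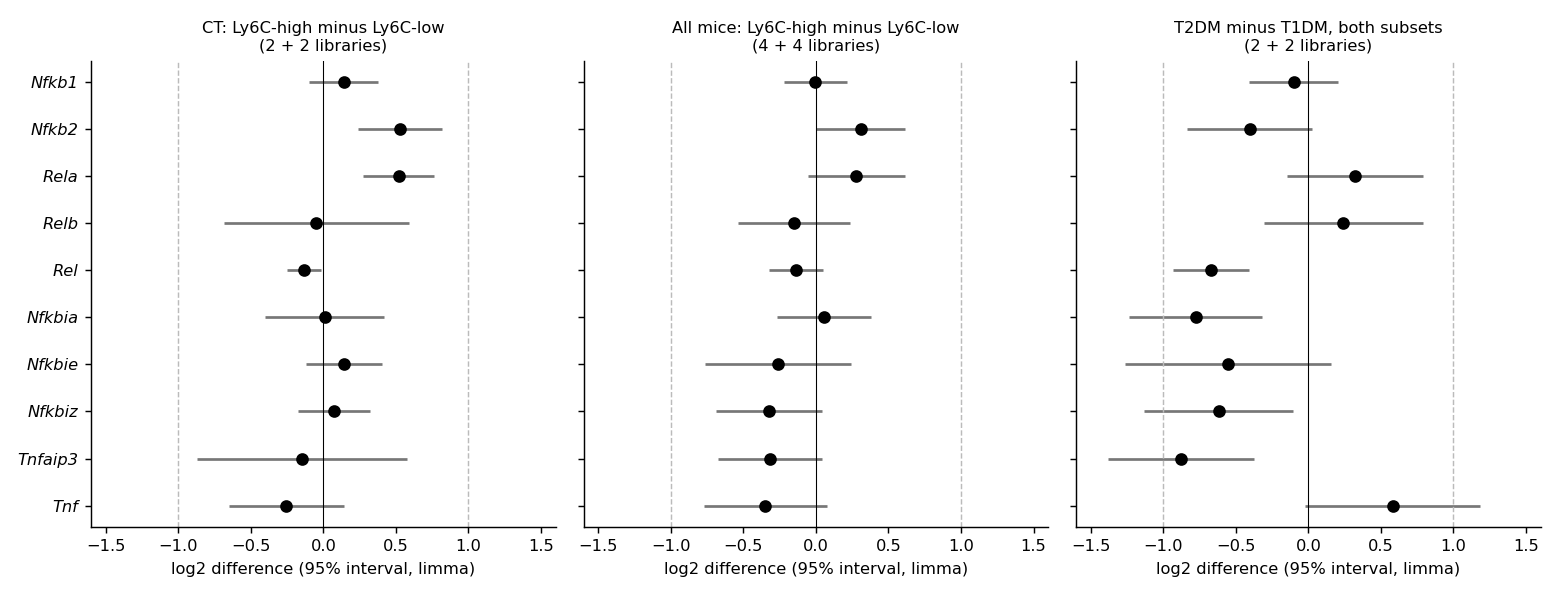
The log2 difference (x axis) of each gene (y axis) in CT Ly6Chigh minus CT Ly6Clow MCs, in Ly6Chigh minus Ly6Clow MCs of all mice, and in T2DM minus T1DM MCs over both subsets, with points for the estimate and lines for the 95% interval from limma. Dashed lines mark 2-fold, and all 10 intervals lie within them in the panels on subsets, against 5 of 10 in T2DM minus T1DM.

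Each diabetic model was then set beside CT MCs of the same subset, which asks what diabetes does to each subset. These comparisons rest on 1 diabetic library and 2 CT libraries, so that the differences have no replicate check and no test was made. In Ly6Chigh MCs, 8 of the 10 genes were below both CT libraries in T2DM mice (35.5% of all genes) and 7 of 10 in T1DM mice (33.5% of all genes). The median difference from CT was -0.47 in T2DM and -0.18 in T1DM Ly6Chigh MCs over the 10 genes, against 0.02 over all genes in each. In T2DM Ly6Chigh MCs, Nfkbie was lower by 2-fold or more (log2 difference -1.31), as were 7.89% of all genes. Nfkbiz (-0.78), Nfkb2 (-0.77), Tnfaip3 (-0.67) and Nfkbia (-0.56) followed, while Rela (0.03) and Tnf (0.21) lay above the CT libraries. The same T2DM library differed from CT Ly6Chigh MCs in its marker sums, with 1563 against 427 to 429 for neutrophil, 235 against 536 to 569 for platelet, 31.4 against 105 to 109 for NK cell and 28190 against 11270 to 11390 for classical MC markers. Its highest neutrophil markers, Mmp8 (9.70) and Cd177 (9.07), were also high in CT Ly6Chigh MCs (7.15 to 7.28 and 7.98 to 8.04). S100a8 (6.90) and S100a9 (5.52) came next, with at most 1.15 and 1.23 in CT Ly6Chigh MCs, and 2 of the 9 markers were lower than in CT. Bulk RNA cannot tell whether neutrophils or MCs expressed these genes. The part of neutrophils, platelets, NK cells and MC makeup in the values was not tested.

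In T1DM Ly6Chigh MCs no gene of the 10 was past 2-fold (10.1% of all genes were). Tnf was lower by 0.80 on the log2 scale and Rela by 0.61, and Nfkbia was higher, with a log2 difference of 0.56. The differences between the CT Ly6Chigh replicates were 0.08 for Tnf, 0.05 for Rela and 0.25 for Nfkbia, smaller than these differences. Tnfaip3, at 6.05, lay between its CT libraries. The 2 models thus stood on opposite sides of CT for Nfkbia and Rel in this subset, and also for Tnf and Rela. Such opposite sides could be built into the deposited values, as set out below for diabetic against CT MCs. Platelet markers summed to 879 in the T1DM Ly6Chigh library, above the CT Ly6Chigh libraries, and B cell markers to 781, against 525 to 542 in CT, and their part was not tested.

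In Ly6Clow MCs none of the 10 genes was past 2-fold in T1DM (8.81% of all genes) or in T2DM mice (10.8% of all genes). In T1DM Ly6Clow MCs 7 of 10 genes lay above both CT libraries (35.1% of all genes), with Nfkbiz (0.63), Tnfaip3 (0.55) and Rel (0.33) farthest from CT. This library also had the highest summed NK cell markers (1017, against 710 to 724 in CT Ly6Clow MCs) and platelet markers (965, against 436 to 446), and their part in these values was not tested. In T2DM Ly6Clow MCs these sums were 187 and 280, below CT, and neutrophil markers summed to 142, against 37.2 to 40.9 in CT. In T2DM Ly6Clow MCs 5 of 10 genes lay below both CT libraries (37% of all genes), led by Rel (-0.53), Tnfaip3 (-0.40) and Nfkbia (-0.32). Tnf differed from CT by -0.19 in T1DM and -0.03 in T2DM Ly6Clow MCs, and Nfkb1 differed by under 0.01 in both.

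**Figure D3:**
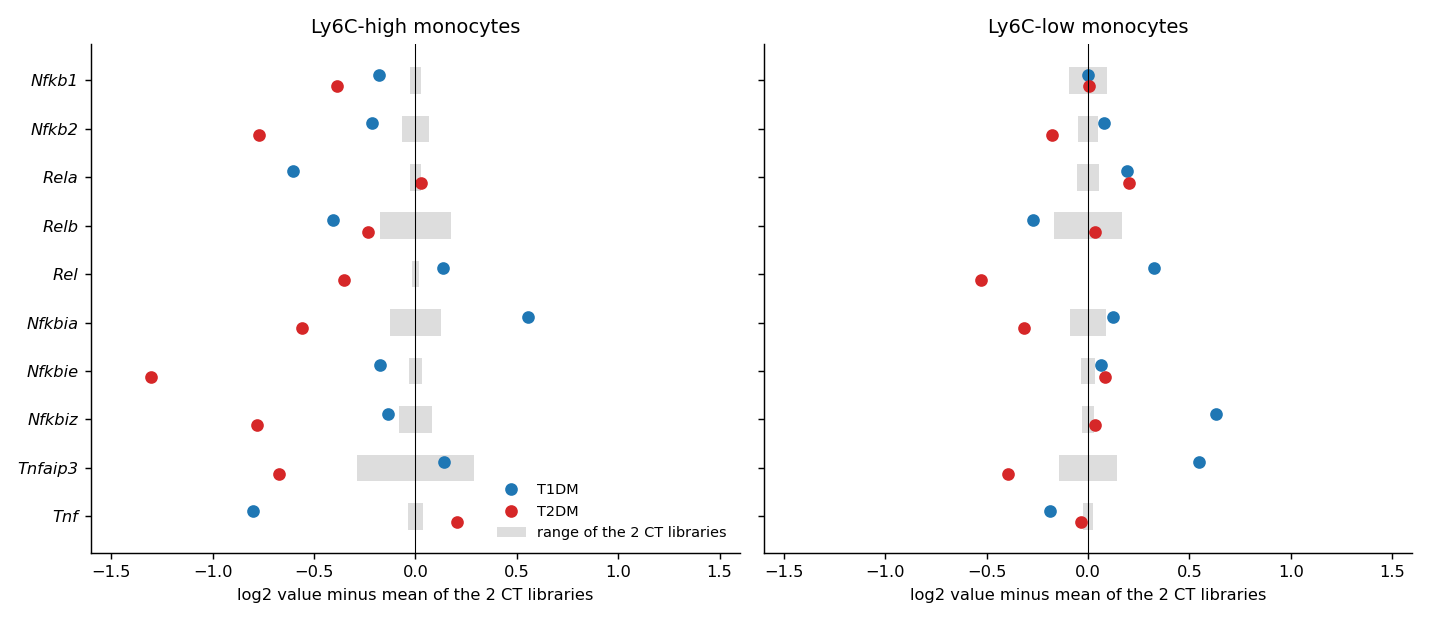
The log2 value of each gene (y axis) in T1DM (blue) and T2DM (red) MCs after subtracting the CT mean of the same subset (x axis), in Ly6Chigh MCs (left) and Ly6Clow MCs (right), with grey bars for the range of the CT libraries. In Ly6Chigh MCs 8 of 10 T2DM points lie left of the grey bars, with Nfkbie farthest at -1.31, and in Ly6Clow MCs the T1DM and T2DM points of Rel and Tnfaip3 lie on opposite sides.

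T2DM and T1DM MCs were compared over both subsets, with the subsets and the CT libraries in the same limma fit, 2 against 2 libraries from the same sequencer model. The 2 libraries of a model are the subsets of 1 pool of mice, so the p-values do not measure the spread between pools. None of the 10 genes was called, against 0.588% of all genes, and at an unadjusted p under 0.05 there were 4 of 10 (Rel, Tnfaip3, Nfkbia and Nfkbiz), against 14.3% of all genes. These 4 were lower in T2DM MCs in both subsets, as was Nfkb2, making 5 of 10 where 27.9% of all genes were lower in both, and 3 of 10 (Rela, Relb and Tnf) were higher in both, against 28.7%. The 95% intervals lay wholly within 2-fold for 5 of the 10 genes, against 42.2% of all genes. The median difference was -0.48 over the 10 genes and 0.00 over all genes. The promoters shown above were picked for a kappaB match, so the matches of Rel, Nfkbia, Tnfaip3 and Nfkb2 are no result about these differences. Nfkbiz had no promoter entry. Nfkbie held a match and was lower in Ly6Chigh MCs (-1.13) but not in Ly6Clow MCs (0.02).

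Rel had log2 values of 7.96 and 7.91 in T2DM Ly6Chigh and Ly6Clow MCs and of 8.44 and 8.77 in T1DM MCs, and CT MCs had 8.33 and 8.29 in Ly6Chigh and 8.44 and 8.44 in Ly6Clow libraries. Both T2DM libraries were thus below the other 6. The difference of T2DM minus T1DM was -0.67 (SE 0.12, 1.59-fold lower, 95% interval -0.93 to -0.41), with an adjusted p of 0.0251 that passed 0.05, as for 2% of all genes, but not the limit of 0.01. The adjusted p was 0.0572 to 0.0622 without any 1 of the CT libraries, 0.217 without the variance trend, and 0.451 in a fit of the 4 diabetic libraries alone, which was added after the data were seen.

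Nfkbia was 4.90 and 5.13 in T2DM Ly6Chigh and Ly6Clow MCs and 6.01 and 5.57 in T1DM MCs. The CT libraries of each subset lay between the models, and all 4 ran from 5.34 to 5.58. The difference was -0.78 (SE 0.20, 1.71-fold lower, adjusted p 0.115). Tnfaip3 was 5.23 and 5.66 in T2DM and 6.05 and 6.60 in T1DM MCs, with CT libraries from 5.62 to 6.20. Its difference of -0.88 (SE 0.22, 1.84-fold lower, adjusted p 0.102) was the largest of the 10 in size. Nfkbiz was 6.22 and 6.97 in T2DM and 6.87 and 7.56 in T1DM MCs, a difference of -0.62 (SE 0.23, adjusted p 0.257). Rel, Nfkbia and Nfkb2 were the 3 genes of the 10 for which both T2DM libraries lay below all 6 others, which held for 3.5% of all genes.

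The activating subunits Rela and Relb and the cytokine gene itself did not share this direction. T2DM minus T1DM was 0.32 (SE 0.21, adjusted p 0.548) for Rela, 0.24 (SE 0.24, adjusted p 0.726) for Relb and 0.58 (SE 0.26, adjusted p 0.37) for Tnf, none of which passed. For Tnf, the difference was 1.01 in Ly6Chigh MCs, set by the value of 3.08 in T1DM, and 0.15 in Ly6Clow MCs. Nfkbie was -0.55 (SE 0.31), with -1.13 in Ly6Chigh and 0.02 in Ly6Clow MCs, and Nfkbia was -1.11 and -0.44. Past 2-fold in Ly6Chigh MCs were thus 3 of the 10 genes (Nfkbie, Nfkbia and Tnf), against 19.3% of all genes, and in Ly6Clow MCs none, against 15.3%.

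Markers of other blood cells moved in the same contrast. All 10 NK cell markers were lower in T2DM MCs (6 called, median -2.51), with sums of 143 and 1017 in T1DM Ly6Chigh and Ly6Clow and 31.4 and 187 in T2DM MCs. All 7 platelet markers were lower too (2 called, median -1.28), with sums of 879 and 965 in T1DM and 235 and 280 in T2DM MCs. Of 9 neutrophil markers measured, 8 were higher (1 called), with sums of 485 and 32.3 in T1DM and 1563 and 142 in T2DM MCs. Of 16 B cell markers, 15 were lower in T2DM MCs (none called, median -0.45), with sums of 781 and 6963 in T1DM and 383 and 7568 in T2DM MCs. All 8 classical MC markers were higher (2 called, median 0.63), with sums of 13690 and 1145 in T1DM and 28190 and 1498 in T2DM MCs. Of 19 immediate-early and stress genes, which respond to handling of cells, 12 were lower in T2DM (none called, median -0.18). The part of these cells and of handling in the lower values of Rel, Nfkbia, Tnfaip3 and Nfkbiz was not tested.

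Against CT MCs over both subsets, the 4 diabetic libraries gave no called gene among the 10 or among all genes (0% called). At an unadjusted p under 0.05, limma gave none of the 10 genes and 0.946% of all genes. All 10 differences were negative, from -0.05 for Rela to -0.33 for Nfkbie (SE 0.25), with a median of -0.12 against 0.01 over all genes. T1DM and T2DM MCs stood on opposite sides of CT for several of these genes. Over all genes, the variance of the difference between CT and diabetic means was 0.074. The variance of the difference between T2DM and T1DM means, divided by 4, was 0.138, so that the ratio was 0.535. Both points limit what this comparison can show. Cxcl2 had an equal value of -2.12 in both CT Ly6Clow libraries and an equal value of -2.57 in both T2DM libraries. Whether the deposited values were adjusted between CT and diabetic libraries is not stated. Such an adjustment would draw the CT and diabetic means together. Few calls and opposite sides of CT could then be built into the values, and its part was not tested. The difference of Ly6Chigh minus Ly6Clow between diabetic and CT mice was also called for none of the 10 genes and no gene in all (0%). At an unadjusted p under 0.05, there were none of the 10 and 6.58% of all genes. It was -0.81 (SE 0.46, adjusted p 0.834) for Nfkbie and -0.79 (SE 0.36, adjusted p 0.777) for Nfkbiz. For Nfkbie the T1DM libraries gave -0.24 and the T2DM libraries -1.39, and for Nfkbiz they gave -0.77 and -0.82. The 95% interval lay within 2-fold for 2 of the 10 genes, against 24.5% of all genes.

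Around these 10 genes, further genes of the pathway were grouped by role and tested between subsets in the pooled limma fit. Of all genes, 12.1% were called in this fit, and the counts below are given beside that share without a test of any group. Of 3 other IkB genes none was called. Bcl3, a nuclear IkB protein, was higher in Ly6Chigh MCs by 0.98 on the log2 scale (SE 0.14, adjusted p 9.6e-04), just under 2-fold, and Nfkbib (IkB beta) by 0.67 (SE 0.14, adjusted p 0.00528). Of 17 genes of the IkB kinases and the kinases above them, 1 rose in Ly6Chigh MCs, Ikbke (1.04, SE 0.17, adjusted p 0.00182), the gene of an IKK-related kinase, and 16 were not called. Of 14 further brakes on the pathway none was called. The median difference was 0.14 for the kinases and 0.13 for the brakes, against -0.08 over all genes.

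Of 16 TRAF proteins and adaptors, 2 were called higher and 1 lower in Ly6Chigh MCs. Myd88, the adaptor of Toll-like and IL-1 receptors, rose by 1.46 (SE 0.11, adjusted p 2.3e-05), and Card9, the adaptor of C-type lectin receptors, by 1.14 (SE 0.18, adjusted p 0.00123). Traf1, which encodes a TRAF protein induced by NF-kB, was lower (-2.23, SE 0.35, adjusted p 0.00143). Of 11 genes of the TNF axis, the receptor genes Tnfrsf1a (1.03, SE 0.10, adjusted p 8.0e-05) and Ltbr (1.51, SE 0.18, adjusted p 3.2e-04) rose in Ly6Chigh MCs, while Ltb, a lymphotoxin gene (-2.33, SE 0.46, adjusted p 0.00472), and Tnfrsf13c, the BAFF receptor gene of B cells (-4.01, SE 0.33, adjusted p 3.7e-05), fell. Ltb was 0.46 to 1.39 in CT and T1DM Ly6Chigh MCs but 4.14 in T2DM Ly6Chigh MCs, close to the 3.85 to 4.37 of the Ly6Clow libraries.

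Of 37 NF-kB target genes, 31 were measured, and 3 were called higher and 9 lower in Ly6Chigh MCs, with 19 not called. The 3 higher genes were Ccl2, the chemokine that recruits MCs (3.56, SE 0.34, adjusted p 9.0e-05), Cxcl10 (3.55, SE 0.58, adjusted p 0.0018) and Il1rn, the IL-1 receptor antagonist gene (1.92, SE 0.18, adjusted p 8.7e-05). Ccl2 had values of 1.45 to 2.67 in Ly6Chigh and -2.21 to -0.96 in Ly6Clow libraries, so that both groups were at low levels. Lower were Cd83 (-3.94, SE 0.38, adjusted p 9.0e-05), the homing receptor gene Ccr7 (-3.49), the chemokine genes Ccl3 (-2.71), Ccl5 (-2.51) and Ccl4 (-2.09), Ptgs2 (-2.27) and the survival genes Bcl2a1b (-2.95), Bcl2a1a (-2.50) and Bcl2a1d (-2.13). The last 3 are near-identical copies among which reads could have been split, so the value of each is uncertain. Ptgs2 (-2.54 to -1.10 in Ly6Chigh and -0.93 to 2.59 in Ly6Clow libraries) and Ccl4 (-1.89 to -0.08 and 0.57 to 1.77) were at low levels too. The median over the 31 targets was -0.31, against -0.08 over all genes.

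**Figure D4:**
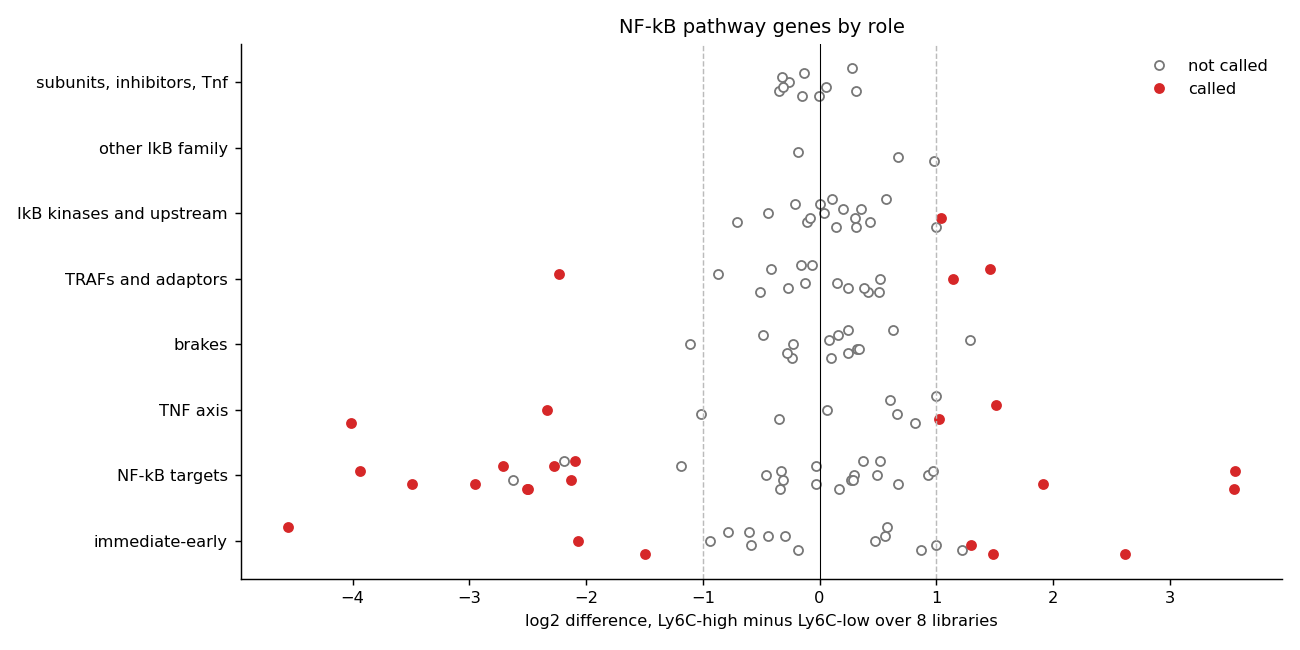
The log2 difference of Ly6Chigh minus Ly6Clow MCs over 8 libraries (x axis) for each measured gene of the pathway by role (y axis, points spread vertically for legibility), with called genes filled in red and dashed lines at 2-fold. The 10 subunit, inhibitor and Tnf points sit within 0.35 of zero, while 12 of 31 targets are called, from Cd83 at -3.94 to Ccl2 at 3.56.

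Of 19 immediate-early genes measured, Fos (2.62, SE 0.19, adjusted p 2.1e-05), Fosl2 (1.30) and Atf3 (1.48) rose in Ly6Chigh MCs and Jun (-1.50, SE 0.17), Egr3 (-4.55) and Dusp2 (-2.07) fell. Egr3 was at low levels in the Ly6Chigh libraries (-2.59 to -0.55), against 2.15 to 3.60 in the Ly6Clow libraries. In CT MCs alone, Myd88 and Tnfrsf1a were called higher and Ltb, Ccl5, Bcl2a1b and Cd83 lower among these groups, with Fosl2 and Dusp1 higher among the immediate-early genes. Between T2DM and T1DM MCs no gene of any of the 7 groups was called. Past an adjusted p of 0.05 in that comparison were Ccl5 (-2.01, SE 0.40, adjusted p 0.0441), Cd83 (-2.60, SE 0.54, adjusted p 0.0499), Plek (-0.61, SE 0.10, adjusted p 0.0225) and, in the other direction, Ier3 (2.36, SE 0.42, adjusted p 0.0281) among targets, and the heat shock gene Hspa1b (-2.71, SE 0.50, adjusted p 0.0313). Ccl5, which NK cells also express, was 3.78 and 6.80 in T1DM and 2.68 and 3.89 in T2DM Ly6Chigh and Ly6Clow MCs. In diabetic against CT MCs and in the difference between the subset effects, no gene of the 7 groups was called either.

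The genes whose pattern over the 8 libraries was most like that of Tnf, by Pearson's r among the 5228 genes whose mean log2 value was 5 or more, were Ssrp1 (r = 0.947), Galnt1 (0.943), Zfp68 (0.937), Setd1a (0.934) and mt-Nd6 (0.911). Each had its lowest value in the T1DM Ly6Chigh library, as Tnf did, for example 5.21 for Ssrp1 against 5.85 to 6.41 in the other 7. These correlations are a description of 8 libraries that share mouse groups and instruments.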

How the data were processed

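Bulk RNA-Seq of 8 libraries of flow-sorted mouse MCs was used. The authors ran Kallisto 0.45, used tximport (version 1.12.3, under R version 3.6.1) to reach gene level, and deposited log2 expression values for 16486 genes. The submitters' processing notes name mm10. The annotation, scaling between libraries and filter are not given in the sources used here. The values run from -4.05 to 15.64, and 2 raised to them sums to 838696 to 1090019 per library. No counts are among them, so the depth behind a value is unknown and precision is known only from the spread between libraries. CT replicates correlated at 0.968 in both subsets. In fits of more than the CT libraries, the spread also includes the diabetic ones.

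Libraries were grouped by their labels, and other libraries of the study were not analysed here. limma 3.58.1 (lmFit and eBayes with trend, R 4.3.3) was fitted on all genes, and the Benjamini-Hochberg adjustment was made across all 16486 of them. The criteria of the study, an adjusted p under 0.01 and a change past 2-fold, defined a called gene. Comparisons with 1 library on a side were not tested. The fits were checked on simulated data. The 10 genes, the gene lists and the tests were chosen with earlier results of these data known. Beside the 10 genes, named genes are those called in a list, up to 3 with the largest differences, a few defining markers, the genes past an adjusted p of 0.05 (chosen after their values were seen), and the 5 most like Tnf. One gene of the adaptor list is not reported here. Promoters are from RefSeq (GRCm38.p6). Alternatives were a low-value filter, 1 added on the linear scale, quantile normalization, no variance trend, looser limits, a replicate block, and leaving out libraries. Tables used pandas 2.3.3, numpy 2.4.6 and scipy 1.17.1 in Python 3.11.15, and figures matplotlib 3.10.9.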

Additional observations from a re-analysis of the deposited data

Results flagged for a closer look

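The results below are listed because diabetic libraries lay on opposite sides of CT MCs in 2 subsets or in 2 models. How many of all genes meet this rule was not counted, so the listed genes are not shown to be unusual. Some sides rest on small distances. Rela was 6.4079 in T2DM Ly6Chigh MCs, against 6.4055 in the higher CT library. Tnf was 4.1012 in T2DM Ly6Clow MCs, against 4.1117 in the lower CT library. Each value is the first difference from CT minus the second on the log2 scale, from 1 diabetic library a side, and none of these differences was tested.

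In T1DM mice, the difference from CT in Ly6Chigh MCs minus that in Ly6Clow MCs was -0.80 for Rela, -0.77 for Nfkbiz, -0.29 for Nfkb2 and -0.24 for Nfkbie. Rela was below CT in T1DM Ly6Chigh MCs (-0.61) and above it in T1DM Ly6Clow MCs (0.19). In T2DM mice the same quantity was -1.39 for Nfkbie, -0.82 for Nfkbiz and 0.24 for Tnf. Nfkbie was at -1.31 in T2DM Ly6Chigh and at 0.08 in T2DM Ly6Clow MCs.

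Between the models, the difference from CT in T1DM minus that in T2DM was 1.12 for Nfkbia, 0.49 for Rel, -0.63 for Rela and -1.01 for Tnf in Ly6Chigh MCs. In Ly6Clow MCs it was 0.94 for Tnfaip3, 0.86 for Rel, 0.44 for Nfkbia and 0.25 for Nfkb2. Rel and Nfkbia were above CT in T1DM and below CT in T2DM MCs of both subsets.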

How the results depend on the processing

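Of the 92 alternative counts of the 10 genes called or past 2-fold, 79 were 0, and in 28 no gene of the whole table was called, so that these say nothing of the 10 genes. With an adjusted p under 0.05 and no limit on size, the count rose to 2 in CT MCs (Nfkb2 and Rela) and to 1 in T2DM against T1DM MCs (Rel). The alternative values for single genes that changed sign were mostly near zero, and the causes were not tested.

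Under quantile normalization, which moved the median of all genes by 0.106 between CT subsets and by 0.12 over the 8 libraries, the CT subset difference was -0.14 for Nfkb1, -0.12 for Nfkbia, -0.15 for Nfkbiz and -0.0084 for Nfkbie, the pooled one -0.058 for Nfkbia, and the difference between subset effects 0.038 for Rel. Quantile normalization also took some pooled subset differences past an adjusted p of 0.05, namely Rel (-0.39, adjusted p 0.00684), Nfkbiz (-0.53, adjusted p 0.0264) and Tnfaip3 (-0.46, adjusted p 0.046). The low-value filter moved that median by 0.102 in CT MCs. Leaving out 1 CT library in turn also turned the sign of some differences. The CT subset difference then ranged from -0.23 to 0.13 for Relb, -0.12 to 0.13 for Nfkbia, -0.0068 to 0.16 for Nfkbiz and -0.43 to 0.14 for Tnfaip3, with reversals without CT Ly6Chigh replicate 2 for all 4 genes and without CT Ly6Clow replicate 1 for Nfkbia (-0.079) or replicate 2 for Relb (0.12). The pooled difference ranged from -0.070 to 0.0043 for Nfkb1 (reversed without CT Ly6Clow replicate 1). Diabetic minus CT ranged from -0.12 to 0.013 for Rela and -0.19 to 0.053 for Tnfaip3 (both reversed without CT Ly6Chigh replicate 1) and from -0.15 to 0.048 for Nfkbiz (without replicate 2). The difference between subset effects ranged from -0.026 to 0.0094 for Rel and -0.028 to 0.22 for Nfkbia (both reversed without CT Ly6Chigh replicate 1).

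Without the T1DM libraries, pooled differences were 0.0077 for Nfkb1 and -0.072 for Nfkbia, diabetic minus CT 0.11 for Rela and 0.087 for Tnf, and the difference between subset effects 0.18 for Rel, -0.24 for Nfkbia and 0.24 for Tnf. Without the T2DM libraries, pooled differences were 0.079 for Nfkb1 and 0.064 for Nfkbie, and diabetic minus CT was 0.23 for Rel, 0.34 for Nfkbia, 0.25 for Nfkbiz and 0.34 for Tnfaip3. The estimates of T2DM minus T1DM cannot move when a CT library, the trend or other genes are left out, so their sign under those alternatives says nothing of their stability.

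Over all genes, 581 were called between CT subsets, 1089 with the low-value filter, 1936 at an adjusted p under 0.05, and 0 without the variance trend, with the replicate block or without any 1 CT library. T2DM against T1DM MCs gave 97 genes, 253 at 0.05, 26 without the trend, 57 to 84 without a CT library and 0 with the diabetic libraries alone. Diabetic against CT MCs gave 0 genes, 1 without CT Ly6Clow replicate 1 and 30 without the T1DM libraries, and the difference between subset effects gave 0 genes, or 3 at 0.05. Same-numbered CT replicates showed no shared deviation (correlation of deviations 0.00892), and whether the numbers pair the libraries is not stated. With the replicate block, 0 of the 10 genes were called between CT subsets, between subsets over the 8 libraries (2001 genes in all, 1823 with the block) or in the difference between subset effects.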
